A study of Mus musculus with 8 samples.

Results

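The comparison described here is RBP-J loss in TNF-treated macrophages, in 4 of the 8 small RNA libraries of a mouse study. The 4 were chosen by label: 2 libraries of RBP-J KO macrophages with TNF for 24 hours and 2 of WT macrophages with TNF for 24 hours. The cells were bone marrow-derived macrophages, grown for 3 days with M-CSF at the equivalent of 20 ng/ml, from mice of a mixed C57BL/6 and 129 background with over 90% C57BL/6. The KO genotype is Rbpjf/f; LysM Cre: Rbpj alleles flanked by loxP sites are cut by a Cre recombinase expressed from the lysozyme 2 locus, which is active in myeloid cells. The labels do not say whether WT mice carried the Cre, whether animals were pooled, or whether the 2 libraries of a group are separate cultures, and the spread behind each p-value is that of these libraries, possibly technical. Small RNA libraries do not measure Rbpj mRNA, so the genotype labels were not checked by the deleted gene.

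RBP-J is the DNA-binding protein of the Notch pathway. Without Notch it sits on its target genes with co-repressors, and the cleaved Notch receptor turns it into an activator. In myeloid cells RBP-J is known to restrain TNF-driven osteoclast formation. A microRNA (miRNA) finds its target messenger RNAs through its seed, a few bases near the 5′ end, and is cut from a hairpin whose 5p and 3p arms can both be kept. miRNAs encoded close together are often cut from 1 transcript.

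Each group has 1 library in each of 2 deposited tables, and every ratio was taken within a table. The first table gives CPM, reads scaled to a fixed library total, for mature arms, and the second was read as RPKM, reads scaled to library total and hairpin length, for hairpins. With TNF, the CPM libraries held 562316 reads for WT and 848648 for KO. The RPKM libraries held about 19340687 and 13574376 reads, of which listed miRNAs took 65.67% in WT (95% Wilson interval 65.65 to 65.69) and 53.17% in KO (53.15 to 53.2). Intervals on reads cover counting error only. The tables list 482 miRNA numbers in all: 197 in both, 132 in the CPM table only and 153 in the RPKM table only. Of the 197, 184 had a mean of at least 5 over the 8 libraries and were tested. Over these 184 the median log2 ratio of KO to WT with TNF, on the log2(value + 1) scale, was -0.043 by CPM and -0.201 by RPKM. Ratios below are given relative to these medians where they are called relative, and median-of-ratios scaling moved the median of the fitted values from -0.124 to -0.008.

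The miRNAs on which the comparison turns are shown first, as mature sequences from RefSeq (GRCm38.p6), 5′ to 3′, with the seed, bases 2 to 8, in capitals. The first 3 share 1 cluster and have related seeds. They are followed by miR-30a, the next on the higher side, and the hypoxia-responsive miR-210, by the cluster of miR-99b, by the pair miR-132 and miR-212 with 1 seed, by relatives of miR-34 and miR-449, which share a seed and stood on opposite sides, and by miR-322 and miR-582.
miR-182-5p: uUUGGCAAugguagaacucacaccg
miR-183-5p: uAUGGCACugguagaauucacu
miR-96-5p: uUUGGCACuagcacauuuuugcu
miR-30a-5p: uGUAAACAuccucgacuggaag
miR-210-3p: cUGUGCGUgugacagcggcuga
miR-99b-5p: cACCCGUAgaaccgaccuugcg
let-7e-5p: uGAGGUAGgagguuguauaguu
miR-125a-5p: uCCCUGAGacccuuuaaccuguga
miR-132-3p: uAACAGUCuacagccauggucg
miR-212-3p: uAACAGUCuccagucacggcca
miR-449c-5p: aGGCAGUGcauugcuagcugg
miR-449a-5p: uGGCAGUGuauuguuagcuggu
miR-34b-5p: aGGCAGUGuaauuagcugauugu
miR-322-5p: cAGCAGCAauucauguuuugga
miR-582-3p: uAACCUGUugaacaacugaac

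KO macrophages with TNF had more miR-183 and miR-182 than WT with TNF, and less miR-210 and miR-151, by at least 2-fold in both tables. Relative to the medians, 3 of the 184 miRNAs (1.63%) were at least 2-fold higher in both tables and 7 (3.80%) at least 2-fold lower. The higher 3 were miR-182, miR-183 and miR-2137, and miR-2137 had 0 and 2 reads in the WT and KO libraries of the CPM table. The lower 7 were miR-151, miR-210, miR-129, miR-34b, miR-466h, miR-195a and miR-127, and the last 4 of these had at most 3 reads in either CPM library with TNF. A further 3, miR-582, miR-143 and miR-1960, differed at least 2-fold in opposite directions in the 2 tables. Counting any size, 55 miRNAs (29.9%) were higher than the medians in both tables, 55 (29.9%) were lower in both, and the rest were split.

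None of these differences passed limma with Benjamini-Hochberg adjustment over the 184 miRNAs (0.00% called, lowest adjusted p = 0.244). At an unadjusted p under 0.05 limma gave 4 miRNAs (2.17%), all lower: miR-151, miR-210, miR-34b and miR-99b. edgeR and DESeq2 on recovered reads also called 0, each with 5 at an unadjusted p under 0.05 (3 higher and 2 lower). Across the 184 miRNAs, which are not independent, the log2 ratios of the 2 tables correlated at 0.171. Among the 100 miRNAs with at least 30 reads in all 4 TNF libraries, 34 were higher in both tables, 28 lower in both and 38 split, and 66 stayed within 1.5-fold of the median in both tables.

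**Figure D1:**
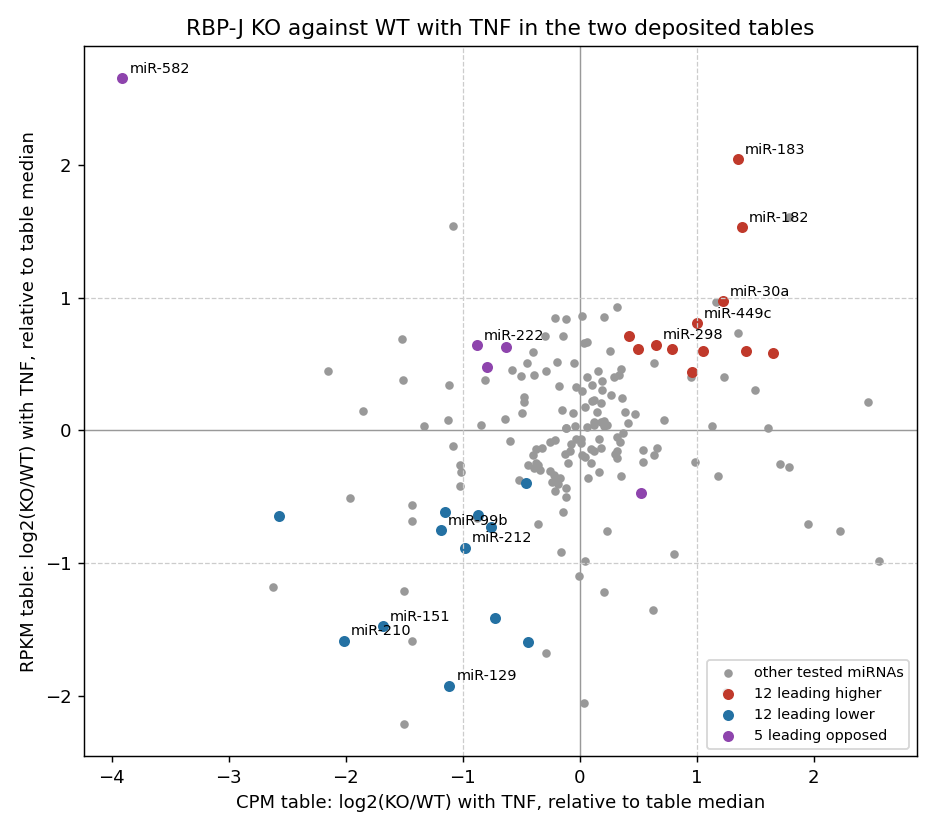
Each point is 1 of 184 tested miRNAs, with the log2 ratio of KO to WT with TNF relative to the table median in the CPM table on the horizontal axis and in the RPKM table on the vertical axis; dashed lines mark 2-fold. miR-182 and miR-183 lie past 2-fold at the upper right, miR-151 and miR-210 at the lower left, and miR-582 at the upper left.

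The cluster that encodes miR-182, miR-96 and miR-183 led the higher side. It is expressed in sensory organs and in activated immune cells, and miR-182 is known as a promoter of osteoclast formation. miR-182 stood at 763 CPM in WT and 1936 CPM in KO, and at 887 and 2232 RPKM. In reads these were 429 and 1643 by CPM and 1287 and 2272 by RPKM. The KO to WT ratio was 2.54 (95% counting interval 2.28 to 2.83) by CPM and 2.52 (2.35 to 2.70) by RPKM, so the 2 tables gave nearly the same size. The fitted log2 fold change was 1.34 ± 0.66 (moderated SE, n = 2 libraries a side), which did not pass limma (adjusted p = 0.9996).

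miR-183 had 96.03 CPM in WT and 239 CPM in KO, and 120 and 436 RPKM, with the KO library above the WT library in either table. Its ratio was 2.49 (1.84 to 3.43) and 3.62 (3.01 to 4.37), and the fitted log2 fold change was 1.58 ± 0.80 (limma adjusted p = 0.9996). miR-96, whose hairpin lies between theirs, was listed in the RPKM table only, at 1 read in WT and 2 reads in KO with TNF, too few for a ratio. The hairpins are intergenic on the minus strand of chromosome 6 in GENCODE M21 (GRCm38), with Mir182 spanning 30165918 to 30165992, Mir96 spanning 30169446 to 30169551 and Mir183 spanning 30169668 to 30169737. The cluster was on the list of miRNAs to name because of earlier results of these data, so its direction here is not independent evidence.

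miR-30a, known for its action on the autophagy gene Beclin 1, was next on the higher side. It had 1115 CPM in WT and 2531 CPM in KO, and 23564 and 40277 RPKM, a fitted log2 fold change of 0.98 ± 0.48. It did not pass limma (adjusted p = 0.9996). The hairpin is intergenic on chromosome 1 at 23272269 to 23272339 of GRCm38. Its relatives with the same seed were close to the medians, at relative log2 ratios of 0.15 and 0.14 for miR-30c and 0.13 and 0.06 for miR-30e. In the tested miR-30 family 4 of 5 members were higher in both tables and 1, miR-30b, was split, with a median fitted log2 fold change of 0.02 against -0.12 over all 184.

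The other leading higher miRNAs were smaller or scarcer. Relative log2 ratios, CPM first and RPKM second, were 1.00 and 0.81 for miR-449c, 0.65 and 0.65 for miR-298, 0.79 and 0.62 for miR-185 and 1.05 and 0.60 for miR-141. They were 1.42 and 0.60 for miR-7a, 1.66 and 0.59 for miR-1945, 0.50 and 0.62 for the let-7 relative miR-98, 0.96 and 0.44 for miR-10a and 0.42 and 0.71 for miR-139. miR-10a, encoded in the Hoxb cluster, was the abundant one among them, at 11547 CPM in WT and 21757 CPM in KO, and 263777 and 312036 RPKM. miR-141, miR-7a and miR-1945 had 2 to 5 reads in the WT library of the CPM table. The lowest-ranked of the 12 leaders, miR-139, had 58 and 114 reads there.

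miR-155, which NF-kB signalling induces in activated macrophages, stood above WT in KO by unlike amounts. It had 391 CPM in WT and 1075 CPM in KO, a ratio of 2.75 (2.37 to 3.20), but 8523 and 9177 RPKM, a ratio of 1.08 (1.05 to 1.11). The fitted log2 fold change was 0.78 ± 0.54 (limma adjusted p = 0.9996). Its hairpin lies in an exon of the lincRNA Mir155hg on chromosome 16.

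**Figure D2:**
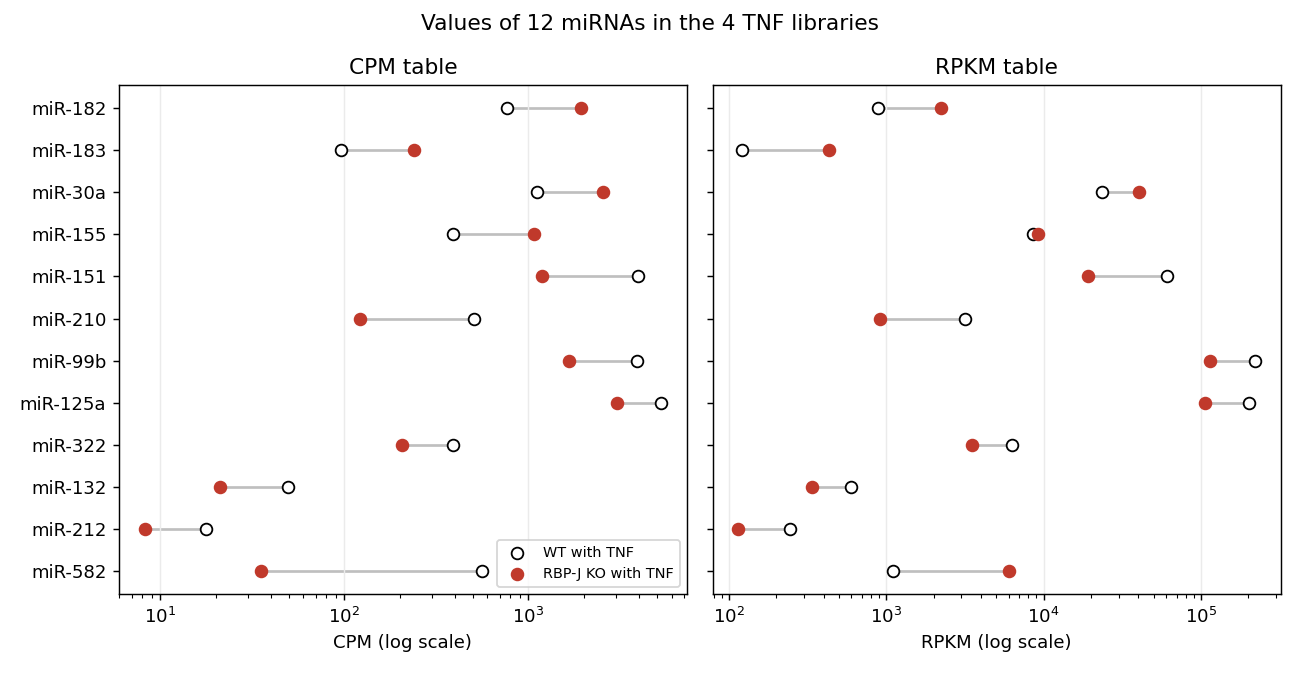
Values of 12 miRNAs in the 4 TNF libraries, in CPM on the left and RPKM on the right, both on log axes; open circles are WT and filled circles KO, 1 library each. The first 4 rows have KO above WT in both panels, miR-151 to miR-212 have KO below WT in both, and miR-582 has KO below WT on the left (35.4 against 562 CPM) and above it on the right (6014 against 1095 RPKM).

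miR-151 and miR-210 led the lower side. miR-151, cut from an intron of Ptk2, the gene of focal adhesion kinase, on chromosome 15 (73254815 to 73254882), had 3934 CPM in WT and 1189 CPM in KO, and 60939 and 19042 RPKM. WT was 3.31 times KO (95% counting interval 3.07 to 3.57) by CPM and 3.20 times (3.15 to 3.25) by RPKM. The fitted log2 fold change was -1.70 ± 0.39, with the lowest p of the 184 (unadjusted 0.00133, limma adjusted p = 0.244; DESeq2 adjusted p = 0.0714). Both arms were lower in KO, the 3p arm at 3205 and 1006 CPM and the 5p arm at 729 and 183 CPM.

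miR-210, the main hypoxia-responsive miRNA and a target of HIF transcription factors, had 509 CPM in WT and 121 CPM in KO, and 3153 and 911 RPKM. WT was 4.19 times KO (3.33 to 5.30) and 3.46 times (3.26 to 3.67), and the KO library lay below the WT library in either table. The fitted log2 fold change was -1.92 ± 0.58 (limma unadjusted p = 0.00792, adjusted p = 0.729). As with miR-151, both arms were lower, the 3p arm at 482 and 119 CPM and the 5p arm at 26.7 and 2.36 CPM. The hairpin is intergenic on chromosome 7 (141221384 to 141221493). miR-129 had 74.7 and 33.0 CPM and 308 and 69.8 RPKM, from 42 and 28 reads in the CPM table, with a fitted value of -1.64 ± 1.21. Further down the 12 leaders on the lower side, miR-676 had 42.7 and 24.8 CPM and 106 and 33.9 RPKM, and miR-342, a lymphoid and myeloid miRNA, had 1360 and 960 CPM and 17555 and 11584 RPKM.

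The cluster of miR-99b, let-7e and miR-125a, cut from an intron of Spaca6 on chromosome 17, was lower in KO for all 3 members. miR-125a is known to increase in mouse macrophages when Notch is activated. miR-99b had 3898 CPM in WT and 1664 CPM in KO, and 219223 and 113312 RPKM (fitted log2 fold change -1.09 ± 0.48, limma unadjusted p = 0.0472). miR-125a had 5257 and 3028 CPM, and 201518 and 105787 RPKM (-0.86 ± 0.44, limma adjusted p = 0.9996). let-7e, listed in the CPM table only, had 15490 CPM in WT and 7064 CPM in KO, from 8710 and 5995 reads, the largest difference on the lower side among the 26 miRNAs of that table alone with at least 30 reads with TNF. Its counting ratio of WT to KO was 2.19 (95% counting interval 2.12 to 2.27). miR-125b and miR-351, which share the seed of miR-125a, were also below the medians in both tables, at relative values of -0.52 and -0.37 for miR-125b and -0.38 and -0.24 for miR-351. let-7e carries the let-7 seed, but the other let-7 miRNAs did not follow it: of 8 tested, 4 were higher in both tables, 1 lower in both and 3 split, with a median fitted value of -0.01.

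A cluster on the X chromosome that runs from miR-322 to miR-450b was below the medians throughout. miR-322, the mouse counterpart of human miR-424, and miR-503 are known as brakes on the cell cycle. All 6 tested members, miR-322, miR-503, miR-351, miR-542, miR-450a and miR-450b, were lower in KO with TNF in both tables, with relative values from -2.57 to -0.25 by CPM and from -0.64 to -0.12 by RPKM. The best measured were miR-322, at 388 CPM in WT and 206 CPM in KO and at 6298 and 3513 RPKM, and miR-351, at 980 and 733 CPM and 22491 and 16535 RPKM. The lowest CPM values rest on few reads: miR-450a had 11 and 2, and miR-503 had 7 and 2. Fitted log2 fold changes ran from -1.73 ± 0.84 for miR-450a to -0.40 ± 0.82 for miR-542, and none passed limma.

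The neighbours miR-132 and miR-212, induced by the transcription factor CREB and sharing a seed, were also lower together. miR-132 had 49.8 CPM in WT and 21.2 CPM in KO, and 593 and 337 RPKM. miR-212 had 17.8 and 8.25 CPM, and 245 and 115 RPKM. In both pairs KO was the lower. Their fitted log2 fold changes were -1.0 ± 0.99 and -1.06 ± 0.97, with 28 and 18 and with 10 and 7 reads behind the CPM values. The 3 miR-29 family members, known for targeting collagen messages, were below the medians in both tables too, with fitted values from -0.79 to -0.26.

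The family of miR-34 and miR-449, known as regulators of multiciliated cells, was divided between its clusters. With TNF, miR-449c and miR-449a, from an intron of Cdc20b on chromosome 13, were higher than the medians in both tables, while miR-34b and miR-34c on chromosome 9 were lower in both. miR-34c had 49.8 CPM in WT and 35.4 CPM in KO, and 3006 and 863 RPKM. miR-34b had 3 and 0 reads by CPM but 103 and 27 by RPKM. miR-449a had 7.11 and 42.4 CPM, from 4 and 36 reads, but 206 and 208 RPKM. The abundant member miR-34a was near the medians, at 106.7 and 101.3 CPM and 2930 and 3193 RPKM. Of the 5 tested, 2 were higher in both tables, 2 lower in both and 1 split.

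Neighbouring hairpins were also compared by side. Hairpins on the same strand no more than 10 kb apart gave 34 clusters with at least 2 tested miRNAs, and in 16 of them all tested members lay on 1 side of the medians in both tables; hairpin copies of 1 miRNA, such as the 2 clusters of miR-181a and miR-181b, share their summed value. In the other clusters at least 1 table had members on both sides or the tables were opposed. Taken singly, 110 of the 184 miRNAs lay on 1 side in both tables, and 27 of the 34 clusters held 2 tested miRNAs. Whether the count of clusters, or that of seed families below, exceeds that of unrelated miRNAs was not tested. The miR-25, miR-93 and miR-106b cluster was higher in both tables by 0.06 to 0.19 (CPM) and 0.30 to 0.45 (RPKM) on the relative log2 scale. miR-221 and miR-222 moved together within each table but in opposite directions, from -0.88 to -0.18 by CPM and from 0.34 to 0.65 by RPKM. Seeds were matched for 160 of the 184 tested miRNAs. Grouped by these seeds, 5 of 24 families with at least 2 members lay on 1 side in both tables. They were miR-125a with miR-125b and miR-351, miR-29, miR-132 with miR-212, miR-146a with miR-146b, and miR-30a with miR-30c and miR-30e. miR-30b and miR-30d of the miR-30 family had no matched seed and were left out of this count. miR-30b was split, at relative values of 0.19 by CPM and -0.13 by RPKM.

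**Figure D3:**
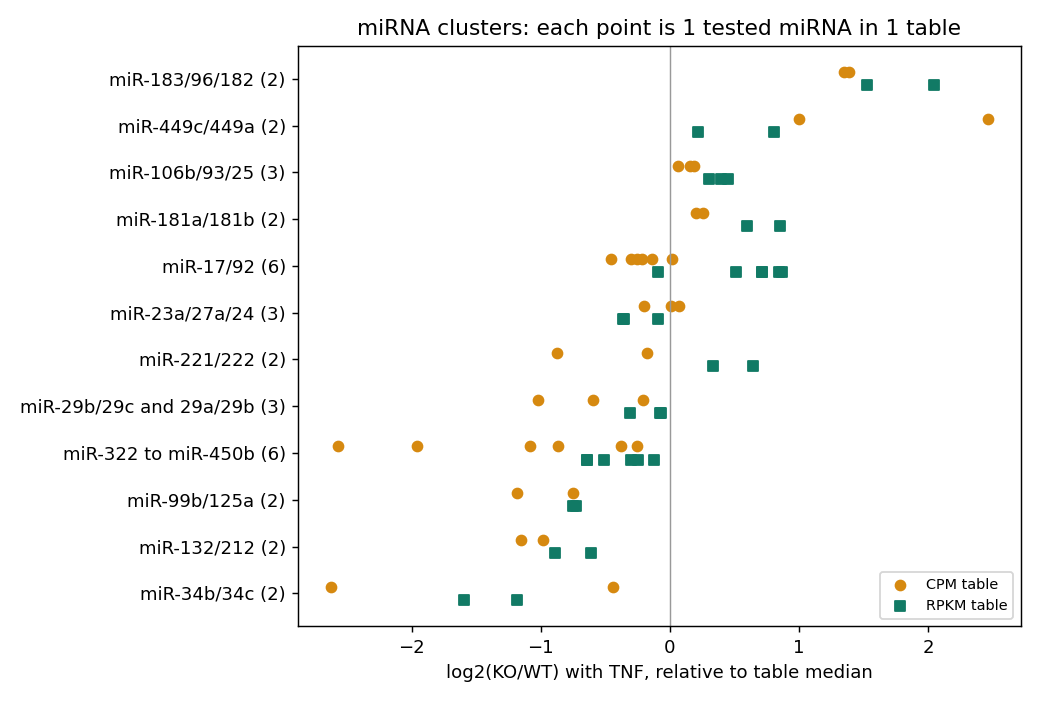
Relative log2 ratios of KO to WT with TNF (horizontal axis) for the tested members of 12 clusters or cluster pairs, chosen after their values were seen; circles are the CPM table and squares the RPKM table, and the number of tested members stands in brackets. The miR-322 to miR-450b cluster has all 12 points below 0, and the miR-221 and miR-222 points lie left of 0 as circles and right of 0 as squares.

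The 10 highest miRNAs summed to similar shares of the WT and KO libraries, while shares of single members differed. The 10 highest took 71.3% of listed CPM in WT and 71.0% in KO, and 78.4% and 77.5% of listed RPKM. miR-92a took 5.24% of listed RPKM in WT and 10.3% in KO, but 5.34% and 5.25% of listed CPM. miR-222 took 7.5% of listed CPM in WT and 3.97% in KO, but 1.64% and 2.76% of listed RPKM. miR-22 had 98869 CPM in WT and 88328 CPM in KO, and 1915070 and 1229690 RPKM. miR-21a, induced by STAT3, was at 92780 CPM in WT and 92850 CPM in KO, and at 1280350 and 969516 RPKM. Others in the leading 10 of either table were miR-27b, let-7f, miR-30d, let-7a, miR-423 and miR-146a. Among those described above, miR-92a, miR-222, miR-99b, miR-125a and miR-10a were also in it. miR-191 and miR-378a, high in the CPM table and listed there only, had 87541 and 120496 CPM and 31777 and 47486 CPM. Over the 13 tested miRNAs of this group the fitted log2 fold change ran from -1.09 to 0.58.

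Lists of related miRNAs gave no called member. Over all 184 tested miRNAs, 29.9% were higher and 29.9% lower in both tables, the shares to set beside the counts below. Of 13 tested TNF and NF-kB responsive miRNAs, 8 were lower and 1 higher in both tables, and the median fitted log2 fold change was -0.50 against -0.12 over all 184. Within it miR-146a, the feedback inhibitor of NF-kB signalling, had 11753 and 10341 CPM and 207369 and 117927 RPKM (-0.50 ± 0.34), and miR-146b, with 6342 and 4861 CPM but only 19 and 9 reads in the RPKM table, had -0.44 ± 0.70. Of 10 osteoclast promoting miRNAs, 7 were lower in both and 2 higher, miR-182 and miR-183 (median -0.44). Of 8 osteoclast restraining ones, 3 were higher and 4 lower in both (median -0.25). Among 15 Notch or RBP-J linked miRNAs, 5 were higher and 7 lower in both (median -0.50). Of 8 myeloid miRNAs, 1 was higher and 4 lower in both (median -0.30), and miR-142a, a marker of blood cells, was close to equal at 11149 and 10504 CPM and 134003 and 119511 RPKM. The lists overlap, so their counts are not independent of each other.

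The remaining families had no called member, and their counts stand beside the same 29.9% on each side over all 184, with the rest split. Of 9 tested miRNAs of the miR-17/92 and paralog clusters, known to drive the cell cycle, 4 were higher and 1 lower in both tables (median 0.13), and the 6 of the miR-17 to miR-92a cluster itself ran from -0.45 to 0.02 by CPM and from -0.09 to 0.87 by RPKM on the relative scale, and of 5 in the miR-23/27/24 clusters 4 were split and 1 was lower (median -0.20). Of 4 in the miR-15/16 family, 2 were lower in both, miR-195a (relative log2 ratios of -1.43 and -1.59) and miR-322, and 2 were split (median -0.47), and of 4 in the miR-181 family 2 were higher in both and 2 split (median -0.11). Of 3 in the family of miR-148 and miR-152, 2 were lower in both (median -0.39). The tested pairs of the miR-26 family and of miR-103 with miR-107 had medians of -0.14 and 0.01.

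Among markers of other cell types, 4 of 5 tested stromal miRNAs and 0 of 5 lymphoid ones were opposed between the 2 tables. Over all 184 tested miRNAs, 110 lay on the same side in both tables and the rest were opposed. The stromal list holds 10 miRNAs, and its sums were taken without the abundant miR-10a, described above. The others of the RPKM table were lower in KO with TNF for 8 of 8, with a summed level of 57026 RPKM in WT and 13475 RPKM in KO, and 8 of 8 were also lower without stimulation. With miR-10a the sums were 320803 and 325511 RPKM. Of those with CPM values, again without miR-10a, 0 of 5 were lower with TNF, at 128 CPM in WT and 173 CPM in KO summed. Without stimulation 3 of 5 were lower, at 513.5 CPM in WT and 274.7 CPM in KO. The part of these cells' RNA in the RPKM ratios above was not tested. miR-143, typical of fibroblasts and smooth muscle, had 51576 and 11410 RPKM but 10.7 and 25.9 CPM. The lymphoid list had 4 of 5 tested lower and 1 higher in both tables (median -0.55), against 29.9% on each side over all 184. Of these 4, miR-205 is also on the epithelial list and had few reads, 1 and 0 by CPM and 9 and 3 by RPKM. The epithelial list had 1 of 7 higher and 3 lower in both (median -0.53), at 97.8 and 99.0 CPM and 1283 and 767 RPKM summed. The 3 muscle miRNAs of the RPKM table summed to 5.30 and 3.52 RPKM and none is listed in the CPM table. Erythroid miRNAs summed to 1995 and 2522 CPM and 2184 and 1878 RPKM. The liver miRNA miR-122 had 3.56 and 0 CPM, and 0.783 and 1.12 RPKM, from at most 2 reads a library. The endothelial miR-126a had 8.89 and 9.43 CPM, from 5 and 8 reads, and 236 and 184 RPKM. In bulk samples fewer cells of a type and less RNA per cell cannot be told apart.

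miRNAs listed in 1 table only have no second library to set beside them, so they are given as values with no test. Of the 153 with RPKM values only, 27 had at least 30 reads over the 2 TNF libraries. Of these 27, 17 were at least 2-fold lower in KO and 1 at least 2-fold higher (66.7% in all), with a median log2 ratio of -1.51. Of the 175 tested miRNAs with as many RPKM reads 13.1% passed 2-fold, and their median was -0.22. The lowest were miR-653, in an intron of the calcitonin receptor gene Calcr, at 214 RPKM in WT and 23.4 RPKM in KO, and miR-190a, miR-541, the Hoxc5-hosted miR-615 and the Hoxa9-linked miR-196b. WT was 9.12 times KO for miR-653 (95% counting interval 6.16 to 14.04), 7.02 times for miR-190a (2.54 to 27.01), 6.53 times for miR-541 (3.40 to 14.1), 5.49 times for miR-615 (4.26 to 7.18) and 5.32 times for miR-196b (4.16 to 6.90). Of the 17, 4 are on the stromal list and 3 on the Dlk1-Dio3 list, and 15 were also lower in KO without stimulation. All members of these 2 lists among the 27 are in the 17. Of the rest of the 27, miR-669o, miR-1982, miR-187, miR-193a and miR-1938 were also lower without stimulation. miR-33, miR-190b, miR-669e, miR-598 and miR-363 were not. The part of the stromal miRNAs, lower in 8 of 8 in the same libraries, in the values of the 17 was not tested. On the higher side miR-363 had 12 reads in WT and 18 in KO, a ratio of 2.14 (0.97 to 4.86), and miR-1938, miR-193a, miR-187 and miR-598, the next in order, had log2 ratios of 0.53, 0.40, -0.33 and -0.37.

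Of the 132 with CPM values only, 26 had at least 30 reads, with a median log2 ratio of -0.09, and let-7e alone passed 2-fold (3.85%, against 15.9% of 126 tested miRNAs with as many CPM reads). The higher end held miR-378d (137 and 250 CPM), miR-6539 (391 and 628 CPM), the Ppargc1b-hosted miR-378a, miR-191 and miR-7213 (19.6 and 27.1 CPM). The lower end after let-7e held miR-7687 (48.0 and 25.9 CPM), miR-5099 (4921 and 2886 CPM), miR-1843b (146 and 86.0 CPM) and miR-677 (28.5 and 17.7 CPM).

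Some miRNAs with at least 30 reads over the TNF libraries of each table went opposite ways in the 2 tables. miR-582, in an intron of the phosphodiesterase gene Pde4d on chromosome 13, had 562 CPM in WT and 35.4 CPM in KO, but 1095 and 6014 RPKM. WT was 15.9 times KO (95% counting interval 10.9 to 24.0) by CPM, and KO was 5.49 times WT (5.21 to 5.79) by RPKM, so counting error is far smaller than the disagreement. Almost all CPM reads came from the 3p arm, 311 of 316 in WT and 30 of 30 in KO. The next were miR-222 (75036 and 39671 CPM, 124157 and 168868 RPKM), miR-877, miR-1981 and miR-152, with relative values of -0.63 and 0.63, -0.79 and 0.48, and 0.53 and -0.48. miR-152 had only 15 and 32 reads by CPM, and its KO to WT ratio there, 1.41, had a 95% counting interval of 0.74 to 2.81.

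The CPM table, which separates arms, showed which strand was kept. Of 116 miRNAs with both arms listed, 85 had at least 30 reads in each TNF library. The 5p share of these differed between KO and WT by a median of 0.559 percentage points, 74 differed by less than 5 points, and 83 kept the same dominant arm. The exceptions were miR-223, a neutrophil and monocyte miRNA, and miR-339. For miR-223 the 5p arm made up 36.3% of 750 reads in WT (95% Wilson interval 32.9 to 39.8) and 55.9% of 839 reads in KO (52.5 to 59.2). Without stimulation it made up 48.1% (44.7 to 51.6) in WT and 67.6% (65.3 to 69.9) in KO of the same table. The 5p share of miR-365 was 83.3% in WT and 65.9% in KO, that of miR-139 was 65.5% and 82.5%, that of miR-339 was 60.0% and 47.9%, and that of miR-3068 was 13.5% and 0% (0 of 48 reads, Wilson upper bound 7.41%). Without stimulation the WT and KO shares were 86.7% and 71.4% for miR-365 (15 and 7 reads) and 18.1% and 43.3% for miR-139. They were 12.5% and 63.3% for miR-339, the reverse of its direction with TNF, and 46.0% and 17.6% for miR-3068. Each share rests on 1 library a side, so there is no replicate check.

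**Figure D4:**
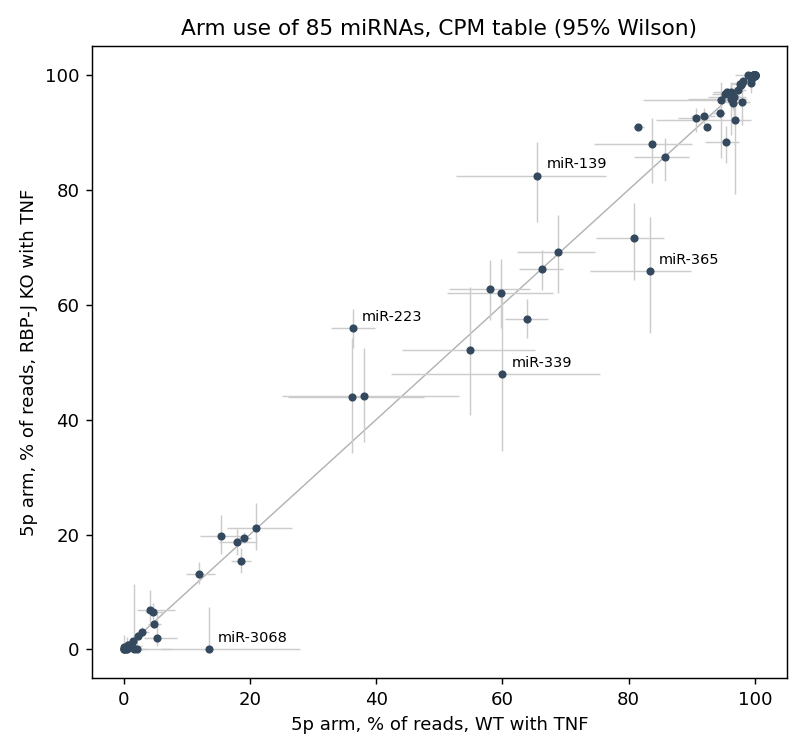
Share of reads from the 5p arm in the WT library (horizontal) and KO library (vertical) with TNF of the CPM table, in percent, for 85 miRNAs; bars are 95% Wilson intervals. Most points lie on the line of equality, and miR-223 (36.3% and 55.9%) lies above it.

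To see whether the genotype difference was the same without TNF, the 184 miRNAs were compared in the unstimulated libraries, which share no library with those above. The labels do not say whether libraries with and without TNF come from the same animals. None of the 184 passed limma for the interaction of genotype and TNF (0.00% called, lowest adjusted p = 0.988), with 0 at an unadjusted p under 0.05, against 4 in edgeR and 2 in DESeq2, which called 0. Leaving out 1 library leaves its group with 1, so only fitted sizes are given. Without the unstimulated WT library of the RPKM table, the fitted interaction was 3.94 for miR-24 and 5.21 for miR-7a. For miR-24 it was 3.19 without the WT library with TNF of the RPKM table. In the CPM table, miR-24 had 11953 reads in the unstimulated WT library and 779 in WT with TNF. The KO libraries there had 1222 without stimulation and 1197 with TNF. Without stimulation 0 miRNAs (0.00%) were at least 2-fold higher in both tables relative to the medians and 7 (3.80%) at least 2-fold lower, and 2 of these 7, miR-151 and miR-195a, are among the 7 lower with TNF. miR-151 had a fitted log2 fold change of -1.49 without and -1.70 with TNF, a difference of -0.21 ± 0.55. miR-30a had 0.99 and 0.98 (difference -0.01 ± 0.69) and miR-99b -0.91 and -1.09 (difference -0.18 ± 0.68). miR-182 had 0.14 without and 1.34 with TNF (difference 1.20 ± 0.94), miR-183 0.16 and 1.58 (1.42 ± 1.13) and miR-210 -0.75 and -1.92 (-1.18 ± 0.82). None of these differences passed, and with such SEs they do not show that the effects were alike. Across the 184, log2 ratios with and without TNF correlated at 0.133 by CPM and 0.509 by RPKM.

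**Figure D5:**
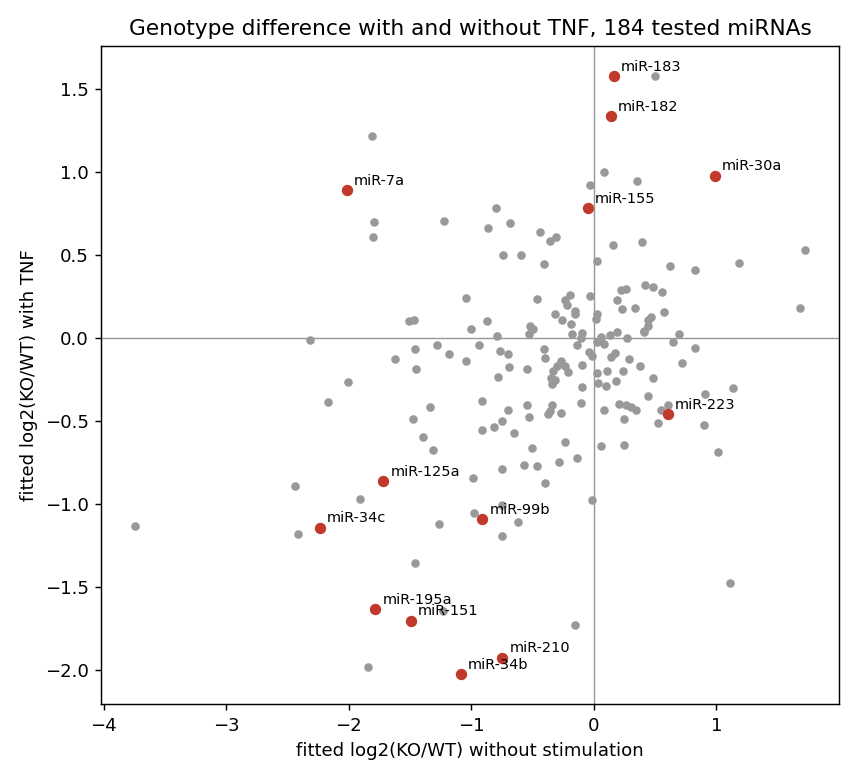
Fitted log2 fold change of KO against WT without stimulation (horizontal) and with TNF (vertical) for 184 tested miRNAs. miR-151, miR-34b, miR-34c, miR-195a, miR-99b and miR-125a lie below 0 on both axes, miR-30a above 0 on both, and miR-182 and miR-183 above 0 with TNF and close to 0 without.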

How the data were processed

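Small RNA libraries were prepared with the Illumina TruSeq small RNA kit, per the labels' protocols. CASAVA 1.8.2 is named, with no role, per the submitters' processing notes; aligner, counter and genome build are not given in the sources used here. The authors deposited CPM per mature arm in the first table (452 rows, each with a highest value of 5.34 or more). The values that the authors deposited in the second table (371 rows, no unit named) were read as RPKM: times hairpin length in GENCODE M21 (363 of 371 identifiers), 94.6% to 95.1% of low values were whole reads at a tolerance of 0.1. Of low CPM values, 100% were whole. No RPKM row holds a 0, against 129 CPM rows. Arms and hairpin copies were summed by miRNA number, with older names matched by hand, and near-identical family members share reads and are uncertain singly.

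limma 3.58.1 in R 4.3.3 (trend) was fitted on log2(value + 1) for 4 groups with the table as a block, over all 8 libraries, two-sided, with Benjamini-Hochberg adjustment at 0.05. A pseudocount of 1 understates changes of low miRNAs. edgeR 4.0.16 and DESeq2 1.42.0 were run on recovered reads. The steps were tested on simulated data. Named miRNAs are the 12 leading higher and 12 leading lower by the smaller of the 2 relative ratios with at least 10 reads in a CPM library with TNF, the 10 highest of each table, the 5 at each end of single-table rows with at least 30 reads, the 5 most opposed, the 5 largest arm differences, 7 fixed ones, and list examples; members of the miR-322 and miR-29 clusters, miR-34b, miR-195a and miR-449a, and others named beside a small count, were named after their values were seen. The members and lists were chosen with earlier results of these data known. Replicate numbers are in the sample titles and correspond to the 2 tables, while column names carry none. RefSeq sequences matched 381 of 452 mature names.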

Additional observations from a re-analysis of the deposited data

Results flagged for a closer look

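Among the named miRNAs, 2 had a genotype difference with TNF that was opposite to the one without stimulation in both tables. These are log2 ratios as they stand, not relative to the medians. miR-7a was higher in KO with TNF, by log2 ratios of 1.38 (CPM) and 0.40 (RPKM), and lower without, by -3.98 and -0.05. The RPKM median without stimulation was -0.085, so relative to that median miR-7a was not lower there. The fitted interaction was 2.90 ± 1.61 (limma adjusted p = 0.988, which did not pass). The unstimulated WT library of the CPM table alone had 148 reads of miR-7a, against 5 to 21 in the other 3. miR-223 was lower in KO with TNF, by -0.43 and -0.49, and higher without, by 0.85 and 0.36, an interaction of -1.06 ± 0.75 (limma adjusted p = 0.988, which did not pass). Groups of 2 libraries are too small for a check of single outlying libraries.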

How the results depend on the processing

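The 0 calls for KO against WT with TNF held under every alternative run: pseudocounts of 0.1 and 5, no filter (197 miRNAs), a mean of at least 20 in each table (131 miRNAs), both scalings, edgeR, DESeq2, the 4 TNF libraries only, the main arm only, no replicate block, and each of the 8 libraries left out. The fit with no replicate block left the median at -0.124 and also called 0. No label links a replicate number to an animal, and deviations from group means correlated at 0.748 to 0.915 among libraries of a table, as the difference in unit between tables alone would give. The count of miRNAs at least 2-fold lower in both tables went from 7 to 4 with a pseudocount of 5 and to 3 with the stricter filter, which removes scarce miRNAs, and the count higher stayed between 2 and 4. The median log2 ratio of -0.124 became -0.00813 with median-of-ratios scaling, 0.0306 when each library was scaled to its listed miRNAs and 0.0186 in DESeq2. With 1 library left out the median ran from -0.536 (without the WT TNF library of the CPM table) to 0.196 (without that of the RPKM table), since a lone library is then compared across tables through the table offset. The same holds for the interaction fits of miR-24 and miR-7a with 1 RPKM library left out. Without the unstimulated WT library they were 3.94 and 5.21, and without the WT TNF library that of miR-24 was 3.19. The cause was not tested.

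Among 44 named miRNAs, of which 24 were chosen for lying on the same side in both tables, other processing turned the fitted sign for miR-152 (0.0205 with median-of-ratios, 0.0584 after rescaling), miR-877 (0.0316 after rescaling, 0.20 in edgeR, 0.23 in DESeq2) and miR-1981 (0.0512 in edgeR, 0.0773 in DESeq2), all opposed between tables. With 1 library left out, fitted values crossed 0 for miR-10a (-0.0599 to 1.22), miR-132 (-2.12 to 0.11), miR-139 (-0.28 to 1.17), miR-152 (-1.52 to 1.32), miR-1981 (-1.62 to 1.07), miR-222 (-0.76 to 0.28), miR-223 (-1.04 to 0.13), miR-29b (-0.91 to 0.00016), miR-339 (-0.76 to 0.87), miR-342 (-1.50 to 0.40), miR-34c (-2.72 to 0.44), miR-351 (-0.95 to 0.0917), miR-365 (-0.48 to 0.11), miR-449c (-0.38 to 1.95), miR-450b (-1.58 to 0.14), miR-542 (-0.87 to 0.0697), miR-582 (-2.92 to 1.42), miR-7a (-0.43 to 2.21) and miR-877 (-1.54 to 1.30). Depth limits the CPM table most: 1 read is 1.78 CPM in the WT and 1.18 CPM in the KO library with TNF.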
